A study of Mus musculus with 18 samples.

Results

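The laminins, the nidogens, perlecan and agrin are the proteins that, together with type IV collagen, build basement membranes. The 10 genes described here were chosen by name, for what they encode, out of 25209 listed genes. They are 3 laminin alpha chains (Lama2, Lama4, Lama5), 2 beta chains (Lamb1, Lamb2), 1 gamma chain (Lamc1), both nidogens (Nid1, Nid2) and the heparan sulfate proteoglycans perlecan (Hspg2) and agrin (Agrn). A laminin molecule is a trimer of 1 alpha, 1 beta and 1 gamma chain, and it assembles into a sheet next to the plasma membrane, held there by integrins and dystroglycan. Nidogens join the laminin sheet to the collagen IV network, and perlecan and agrin attach to this scaffold and carry heparan sulfate chains that bind growth factors. In fat tissue every fat cell is wrapped in such a basement membrane.

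Polyadenylated RNA was sequenced from 3T3-L1, a mouse fibroblast line that forms fat cells under hormonal induction, in 18 libraries, 3 in each of 6 groups. Per the labels' protocols, the cells were grown in medium with 10% serum, and at 2 days past confluence they received 10 µg/mL insulin, 0.25 µM of the glucocorticoid dexamethasone and 0.5 mM of the phosphodiesterase inhibitor IBMX for 48 h, followed by medium with 5 µg/mL insulin that was renewed every 2 days. The groups are Control, MCE1 and MCE2, named for 2 stages of mitotic clonal expansion (the cell divisions that follow induction), and Day4, Day6 and Day8 after the stimuli. All groups are the same line, with no genetic change named. The labels give no time for MCE1 and MCE2, do not say what Control cells received, and do not state if the replicates came from different cultures. The p-values therefore speak only of the spread seen among these libraries, which may be technical.

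Values are TPM (transcripts scaled to a fixed library total), a level that is scaled for gene length, so levels of different genes can be set side by side. TPM keeps no read depth, and the depth is unknown. Levels are given as mean ± SD (n = 3) or for replicates 1, 2 and 3 in turn. Changes are differences of mean log2(TPM + 1) ± SE, which understate the change of a gene with few TPM, and p-values are from limma's moderated test, with Benjamini-Hochberg adjustment across all 12695 tested genes and a call at an adjusted p under 0.05. In a culture, a change in how many cells express a gene and a change in its RNA per cell cannot be told apart. The 5 comparisons with Control share the same 3 Control libraries.

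The labels name no cell type for the late groups, and most fat cell markers were higher there than in Control. Fat cell markers (8 genes, among them Fabp4 and Adipoq) summed to 158 to 173 TPM in the Control libraries and to 25589 to 28186 TPM at Day8. Fabp4 alone had a mean of 15628 TPM at Day8. Pparg, also among the 8, was 31.5 TPM in Control, 32.3 at Day4 and 88.2 at Day8, and was not called against Control in any group. Lep, at 0.0981 TPM, was not called at Day4. Of 8 endothelial markers, 6 were under 1 TPM in all 18 libraries, with Tie1, Emcn and Erg listed at 0 throughout, and the sum was at most 1.72 TPM. Of 6 macrophage markers, Adgre1, Ptprc and Itgam were listed at 0 in all libraries, and the sum lay between 1.66 and 7.74 TPM. The 8 muscle and Schwann cell markers summed to 3.88 to 5.33 TPM in Control and 44.5 to 56.3 TPM at Day8, with Myod1, Myog and Ckm at 0 in all libraries. Most of the Day8 sum was in desmin (Des, 40.6 ± 3.85 TPM). At Day4 the mean of S100b, another marker of this list, was above that of desmin (21.2 against 13.9 TPM), and at Day8 it was 8.18 TPM. The 7 epithelial markers summed to 0 to 0.175 TPM in Control and 9.85 to 12.8 TPM at Day8, with Krt5 and Cldn4 under 1 TPM in all libraries. The part of these desmin, S100b and keratin signals in the results below was not tested.

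All 10 genes passed the filter of at least 1 TPM in at least 3 libraries, and each varied over the 6 groups in the F test, with adjusted p from 5.28e-14 (Nid2) to 0.00389 (Hspg2), where 87.6% of all genes tested were called. Lama2 passed the filter only through its Day4, Day6 and Day8 libraries. Summed over the 10 genes, the level was 1144 ± 58.7 TPM in Control, 1763 ± 138 at MCE1, 1162 ± 71.8 at Day4 and 1432 ± 179 at Day8. The sum hides a change in make-up. Nid1 supplied 53.5% of it in Control and 29.2% at Day8. Over the same span the share of Lamb1 went from 12.0% to 26.6% and that of Lama4 from 3.82% to 13.4%.

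**Figure D1:**
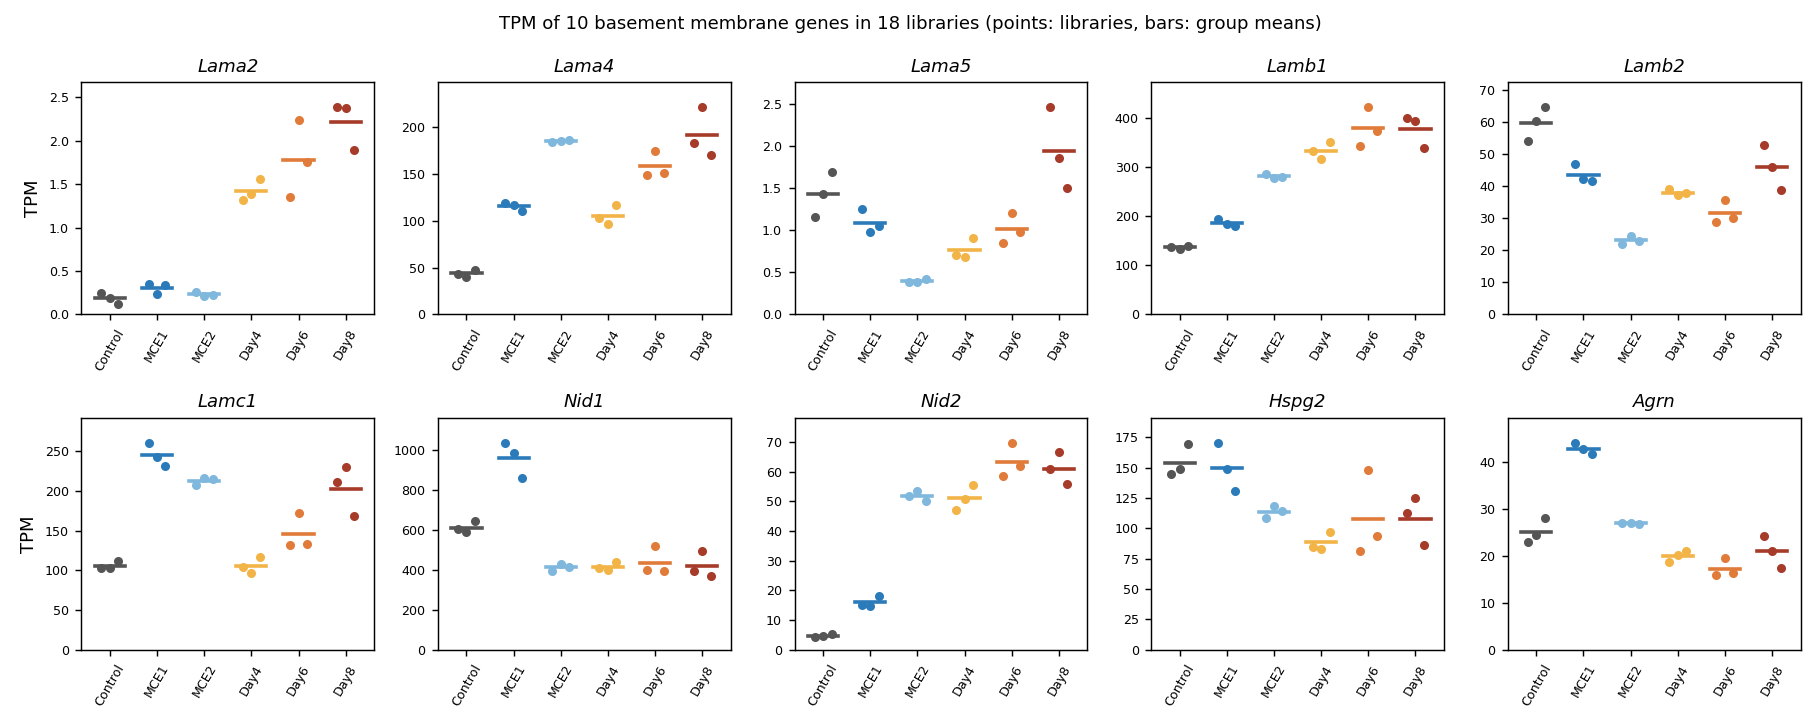
TPM of the 10 genes in each of the 18 libraries, 1 panel per gene, with groups along the horizontal axis, 1 point per library and a bar at each group mean. Nid2 is near 5 TPM in Control and between 47.0 and 69.8 TPM from MCE2 on, Nid1 and Agrn peak at MCE1, and Lamb2 is lowest at MCE2.

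At the first stage after induction, MCE1, 6 of the 10 genes were higher than in Control and 1 was lower, where 51.4% of all genes tested were called (22.0% higher and 29.4% lower). The median change was 0.55 for the 10 genes and -0.06 for all genes. Nid2 (1.57), Lama4 (1.38), Lamc1 (1.20), Agrn (0.75), Nid1 (0.65) and Lamb1 (0.44) rose, and Lamb2 fell by 0.45. At MCE2, 4 were higher (Nid2, Lama4, Lamb1, Lamc1) and 4 lower (Lamb2, Lama5, Nid1, Hspg2), with 62.5% of all genes called (23.4% higher and 39.1% lower) and medians of 0.08 and -0.17. When libraries were rescaled by median ratios, the share of called genes that were higher went from 42.9% to 54.3% at MCE1 and from 37.4% to 50.1% at MCE2, and the median of all genes at MCE2 from -0.17 to 0.00. At Day4, Day6 and Day8 that scaling moved the median of all genes from -0.11, -0.12 and -0.11 to 0.01, 0.01 and 0.00. Under that scaling the split of the 10 genes was 6 higher and 1 lower at MCE1, and 5 higher and 3 lower at MCE2.

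In the later groups the set stayed divided. Against Control, 4 genes were higher and 5 lower at Day4, where 69.0% of all genes were called (29.7% higher and 39.3% lower). At Day6, 5 were higher and 4 lower, with 69.7% of all genes called (30.2% and 39.4%), and at Day8 the split was again 5 and 4, with 71.4% called (31.7% and 39.7%). These shares of 9 in 10 stand beside a background in which most genes were called. The median change of the 10 genes was -0.16 at Day4, 0.09 at Day6 and 0.60 at Day8, against -0.11, -0.12 and -0.11 for all genes. Lama2 (which passed the filter only through these groups), Lama4, Lamb1 and Nid2 were higher in all 3 groups. Lamb2, Nid1, Hspg2 and Agrn were lower in all 3. With median-ratio scaling the split was 4 higher and 4 lower at Day4, 5 and 4 at Day6, and 6 and 3 at Day8. Under that scaling Agrn was not called at Day4 (limma adjusted p = 0.116) or Day8 (0.223).

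**Figure D2:**
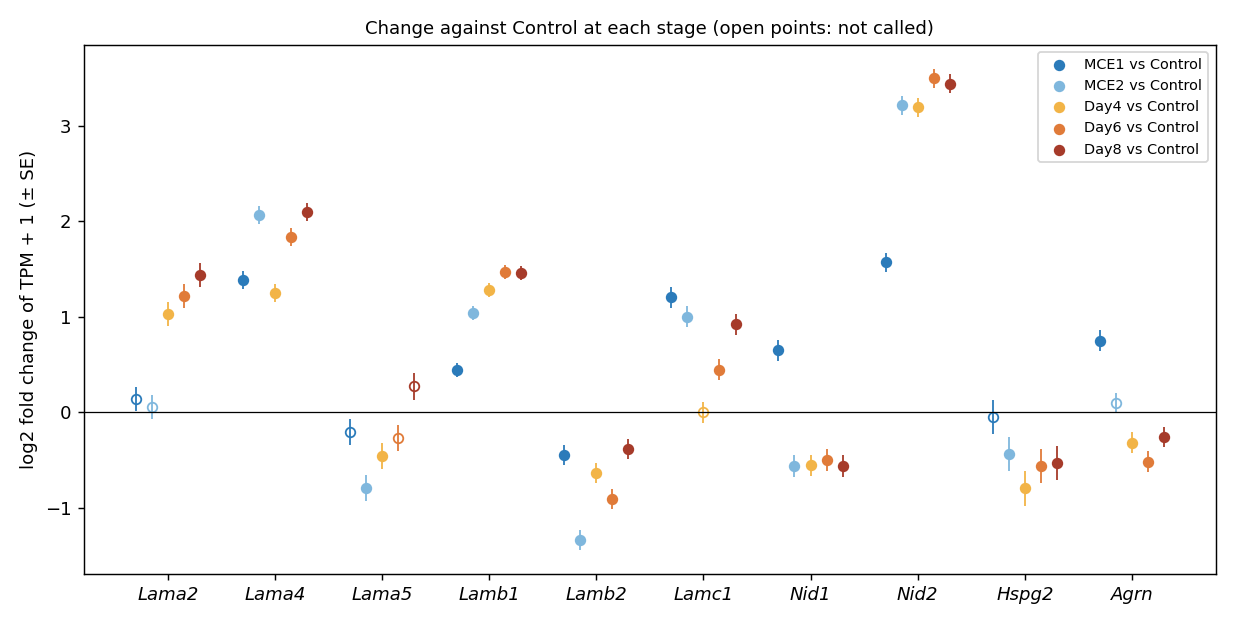
Change against Control of each of the 10 genes at MCE1, MCE2, Day4, Day6 and Day8, as the difference of mean log2(TPM + 1) with bars of 1 SE, filled where called at an adjusted p under 0.05 and open where not. Nid2 reaches 3.49 at Day6, Lamb2 is lowest at MCE2 (-1.33), and Lamc1 returns to 0.00 at Day4.

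Promoter sequence is shown for 4 members, because the pairs Lamb1 with Lamb2 and Hspg2 with Agrn are genes of like role whose RNA moved differently at MCE1. The sequences are from RefSeq on the GRCm38.p6 build, a later build than the mm9 positions given elsewhere, and cover the 180 bases from 250 to 71 before the annotated start, which keeps clear of annotated UTRs. Capitals mark GC boxes (GGGCGG on either strand), the letters bound by SP-family factors.
Lamb1 (chr12:31265043-31265222, plus strand): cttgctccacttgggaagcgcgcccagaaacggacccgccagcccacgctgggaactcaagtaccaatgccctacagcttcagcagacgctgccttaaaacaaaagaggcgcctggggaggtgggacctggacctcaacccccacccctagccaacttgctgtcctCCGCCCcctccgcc
Lamb2 (chr9:108479612-108479791, plus strand): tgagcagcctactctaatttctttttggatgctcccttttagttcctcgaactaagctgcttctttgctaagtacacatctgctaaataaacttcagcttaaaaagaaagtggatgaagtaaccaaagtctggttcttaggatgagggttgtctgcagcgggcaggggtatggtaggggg
Hspg2 (chr4:137468553-137468732, plus strand): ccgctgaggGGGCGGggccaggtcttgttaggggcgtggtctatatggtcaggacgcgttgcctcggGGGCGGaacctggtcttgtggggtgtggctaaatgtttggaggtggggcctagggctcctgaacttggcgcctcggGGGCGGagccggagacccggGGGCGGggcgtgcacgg
Agrn (chr4:156197559-156197738, minus strand): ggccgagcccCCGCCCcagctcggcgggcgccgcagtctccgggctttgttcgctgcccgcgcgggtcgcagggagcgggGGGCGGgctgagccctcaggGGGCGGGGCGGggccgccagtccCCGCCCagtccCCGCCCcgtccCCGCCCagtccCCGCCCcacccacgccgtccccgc
A GC box was found in 21.1% of all 32851 promoter windows of this length. The Lamb1 window holds 1, beside 1 CCAAT box (CCAAT on either strand, found in 25.0% of windows), and its GC content is 63.3%. In the Lamb2 window, at 43.9% GC, these letters do not occur. The Hspg2 window holds 4 GC boxes at 69.4% GC, and the Agrn window holds 8, counting a pair that overlaps, at 83.9% GC, while a second annotated Agrn start, at 58.3% GC, has 0. Neither TATAAA (8.37% of windows) nor the E-box CACGTG (3.69%) occurs in any of the 8 windows found for 7 of the 10 genes. The windows end 71 bases before the start, so letters nearer to the start were not searched. Whether these genes have a TATA box there cannot be read from them. A match of letters is a description of the sequence, and none of these data measured binding.

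Lama4 carried nearly all of the laminin alpha chain RNA. It lies on chromosome 10 from 38685321 to 38829994 (mm9) and encodes an alpha chain typical of fat cells, vessels and other mesenchymal tissue. Its levels were 43.7, 40.5 and 47.1 TPM in Control, 119, 117 and 111 at MCE1, 184, 186 and 186 at MCE2, 103, 96.3 and 117 at Day4, 149, 175 and 151 at Day6, and 183, 222 and 170.0 at Day8. Every later library was above every Control library, and the course had 2 peaks, with the Day4 libraries between them at or below the level of MCE1, whose range they overlapped. Against Control the change was 2.06 ± 0.09 at MCE2 (adjusted p = 1.76e-11) and 2.10 ± 0.09 at Day8 (7.36e-12), a 4.24-fold and a 4.38-fold higher mean. From MCE2 to Day4 Lama4 fell by 0.81 (2.65e-06), and from Day4 to Day6 it rose by 0.58 (0.000246). The difference between Day8 and Day6, 0.27, did not pass the threshold (0.0543), and it did without Day8 replicate 3 (0.35, adjusted p = 0.0208) or without Day6 replicate 2 (0.34, adjusted p = 0.0262).

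Lama2, on chromosome 10 from 26701092 to 27336748, encodes the alpha chain of the main laminin around muscle fibres. Its levels were 0.249, 0.191 and 0.118 TPM in Control and at most 0.346 TPM at MCE1 and MCE2. They were 1.32, 1.38 and 1.56 TPM at Day4, 1.35, 2.24 and 1.75 at Day6, and 2.38, 2.38 and 1.89 at Day8. The 9 later libraries were all above the 9 earlier ones, at levels of at most 2.38 TPM. Relative to Control the difference was 1.03 ± 0.13 at Day4 and 1.44 ± 0.13 at Day8, given as a description, since these groups are the ones through which Lama2 passed the filter. Desmin moved with it, at 3.10 ± 0.633 TPM in Control, 13.9 ± 0.239 at Day4 and 40.6 ± 3.85 at Day8, while the muscle genes Myod1, Myog and Ckm were listed at 0 in all 18 libraries.

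Lama5, on chromosome 2 from 179911078 to 179960564, encodes the alpha chain that prevails in epithelial and mature vessel basement membranes. It was measured at 1.15, 1.42 and 1.69 TPM in Control, 1.25, 0.977 and 1.04 at MCE1, 0.382, 0.384 and 0.416 at MCE2, 0.706, 0.681 and 0.902 at Day4, 0.845, 1.21 and 0.982 at Day6, and 2.46, 1.86 and 1.49 at Day8. MCE2 lay apart below all other groups, and the other groups overlapped their neighbours in order. The fall from Control to MCE2 was 0.79 on the log2 scale (adjusted p = 0.000103), and the rise from Day6 to Day8 was 0.54 ± 0.14 (0.0107). The 0.27 by which Day8 exceeded Control was not called (0.0887), but was called without Day8 replicate 3 (0.38, adjusted p = 0.0261) and with median-ratio scaling (0.34, adjusted p = 0.0257).

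Within the alpha chains, Lama4 made up 96.4% ± 0.324 of the summed TPM in Control and 97.8% to 99.7% in the later groups. The share of Lama5 was 3.13% ± 0.503 in Control and 0.212% ± 0.00913 at MCE2, and it was 0.997% ± 0.269 at Day8. Lama2 accounted for 0.416% ± 0.159 in Control, 1.32% ± 0.0775 at Day4 and 1.14% ± 0.116 at Day8. For Lama4 and Lama5 every later library lay on the same side of all Control libraries, with an exact 2-sided permutation p of 0.1 in each of the 5 groups, the smallest that 3 against 3 libraries allow. Such tests were made for 7 shares and ratios in 5 groups, 35 in all, and could not reach 0.05. The sum also counts Lama1, listed at 0 in all 18 libraries, and Lama3, at most 0.159 TPM.

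Against Control, the beta chains moved in opposite directions. Lamb1, on chromosome 12 from 31950158 to 32014509, encodes the beta chain found in most laminins, and Lamb2, on chromosome 9 from 108382193 to 108392861, the one known from muscle synapses, kidney and vessels. Lamb1 stood at 138, 133 and 139 TPM in Control, 194, 185 and 180.3 at MCE1, 286, 278 and 281 at MCE2, 334, 317 and 352 at Day4, 344, 423 and 375 at Day6, and 402, 394 and 340.1 at Day8. Each group up to Day4 lay above the one before it without overlap, and Day4, Day6 and Day8 overlapped. The change from Control was 0.44 ± 0.07 at MCE1 (adjusted p = 7.02e-05), 1.04 ± 0.07 at MCE2 (2.98e-09) and 1.46 ± 0.07 at Day8 (2.28e-11), where the mean was 2.77-fold higher. The last 2 steps, 0.19 from Day4 to Day6 (0.0706) and -0.01 from Day6 to Day8 (0.969), did not pass the threshold. The first of these was called without Day6 replicate 1 (0.25, adjusted p = 0.0206), without Day8 replicate 3 (adjusted p = 0.0393) and with median-ratio scaling (adjusted p = 0.0367).

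For Lamb2 the levels were 54.2, 60.3 and 64.6 TPM in Control, 46.8, 42.2 and 41.6 at MCE1, 22.0, 24.6 and 22.8 at MCE2, 39.2, 37.1 and 37.8 at Day4, 28.8, 35.7 and 30.0 at Day6, and 53.0, 46.1 and 38.7 at Day8. All later libraries were below all Control libraries, and MCE2 was the lowest group, apart from the rest. Relative to Control, Lamb2 changed by -1.33 ± 0.11 at MCE2 (adjusted p = 1.62e-08) and -0.38 ± 0.11 at Day8 (0.00426). Lamb2 rose by 0.70 from MCE2 to Day4 (4.42e-05) and by 0.53 from Day6 to Day8 (0.00222). In between, Day6 was lower than Day4 by 0.27, with ranges apart, which was not called (0.0724). That difference was called with median-ratio scaling (adjusted p = 0.0413) and with quantile normalization (0.0315). It was also called without Day6 replicate 2, Day8 replicate 1 or Day8 replicate 3 (0.0268 to 0.0422).

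As a result the log2 ratio of Lamb1 to Lamb2 went from 1.18 ± 0.126 in Control to 2.07 ± 0.0423 at MCE1 and 3.55 ± 0.0978 at MCE2. It was 3.10 ± 0.0734 at Day4, 3.555 ± 0.0390 at Day6 and 3.02 ± 0.109 at Day8. The ratios are of TPM + 1 within a library. In all 5 later groups every library was above every Control library (exact permutation p = 0.1 in each). At MCE2 the difference from Control was 2.37, made of a rise in one chain and a fall in the other.

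Lamc1, which encodes the gamma chain of most laminins, lies on chromosome 1 from 155066052 to 155179916. It was measured at 103, 103 and 111 TPM in Control, 261, 243 and 231 at MCE1, 207, 217 and 215 at MCE2, 104, 97.1 and 117 at Day4, 131, 172 and 134 at Day6, and 211, 229.5 and 168 at Day8. MCE1 stood above all other groups, Day4 overlapped Control, and the later libraries lay between. The change from Control was 1.20 ± 0.11 at MCE1 (adjusted p = 1.81e-07), 0.00 ± 0.11 at Day4 (not called) and 0.92 ± 0.11 at Day8 (1.81e-06). Between MCE2 and Day4 it fell by 1.002 (1.91e-06), and it then rose by 0.45 to Day6 (0.00761) and by 0.47 to Day8 (0.00677), the last with overlapping ranges.

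Because Lama4 and Lamc1 had different courses, the balance of alpha chain to Lamc1 RNA shifted. The log2 ratio of the summed alpha chains to Lamc1 was -1.21 ± 0.0537 in Control, -1.06 ± 0.0424 at MCE1, -0.19 ± 0.0255 at MCE2, 0.02 ± 0.00656 at Day4, 0.15 ± 0.0879 at Day6 and -0.05 ± 0.107 at Day8. Alpha chain and Lamc1 levels were therefore nearly equal from Day4 on, where Lamc1 had exceeded the alpha chains in Control (exact permutation p = 0.1 for each later group). The beta chains (Lamb1, Lamb2 and Lamb3) summed to 197.3 ± 6.65 TPM in Control and 446.4 ± 41.2 TPM at Day8, more than either, while at MCE1 their 229.9 ± 9.49 TPM lay below the 245.1 ± 14.9 TPM of Lamc1. At Day8 the alpha chains summed to 195.8 ± 27.0 TPM and Lamc1 stood at 202.9 ± 31.4 TPM.

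Nid1 had the highest mean level of the 10 genes in every group. It lies on chromosome 13 from 13529869 to 13604542. Its levels were 605, 588 and 644 TPM in Control, 1038, 988 and 860.2 at MCE1, 394, 431 and 417 at MCE2, 409.5, 398 and 442 at Day4, 398, 518 and 394 at Day6, and 393, 496 and 367 at Day8. MCE1 lay above Control and the 4 later groups below it, and those 4 overlapped one another. Against Control, Nid1 rose by 0.65 ± 0.11 at MCE1 (adjusted p = 0.000160) and changed by -0.56 ± 0.11 at MCE2 (0.000417) and at Day8 (0.000354). The 3 steps after MCE2 had differences between -0.06 and 0.06, and did not pass the threshold (adjusted p from 0.756 to 0.961).

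Nid2, on chromosome 14 from 20570479 to 20631009, had the largest log2 change of the 10 genes. It stood at 4.27, 4.55 and 5.35 TPM in Control, 15.1, 14.7 and 18.2 at MCE1, 51.8, 53.6 and 50.1 at MCE2, 47.0, 51.0 and 55.6 at Day4, 58.7, 69.8 and 61.9 at Day6, and 60.9, 66.6 and 55.8 at Day8. Control, MCE1 and MCE2 did not overlap, MCE2 overlapped Day4, and Day6 and Day8 overlapped each other above these. The change from Control was 1.57 ± 0.10 at MCE1 (adjusted p = 1.93e-09), 3.21 ± 0.10 at MCE2 (2.02e-13) and 3.44 ± 0.10 at Day8 (4.05e-14). Mean levels were 11.0-fold higher at MCE2 and 12.9-fold higher at Day8. The rise of 0.30 from Day4 to Day6 was called (0.0369), but not when any 1 of Day4 replicate 1, Day4 replicate 2, Day6 replicate 2 or Day6 replicate 3 was left out (0.23 to 0.32, adjusted p from 0.0640 to 0.144).

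The log2 ratio of Nid1 to Nid2 therefore fell, from 6.75 ± 0.0896 in Control to 5.83 ± 0.294 at MCE1, 2.97 ± 0.0634 at MCE2 and 2.75 ± 0.112 at Day8. Every later library was below every Control library (exact permutation p = 0.1 in each of the 5 groups). Nid1 remained the higher of the pair in all 18 libraries. The larger part of the shift had occurred by MCE2, when the summed fat cell markers had reached 3455 to 3770 TPM, below the 17612 TPM of the lowest Day4 library.

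**Figure D3:**
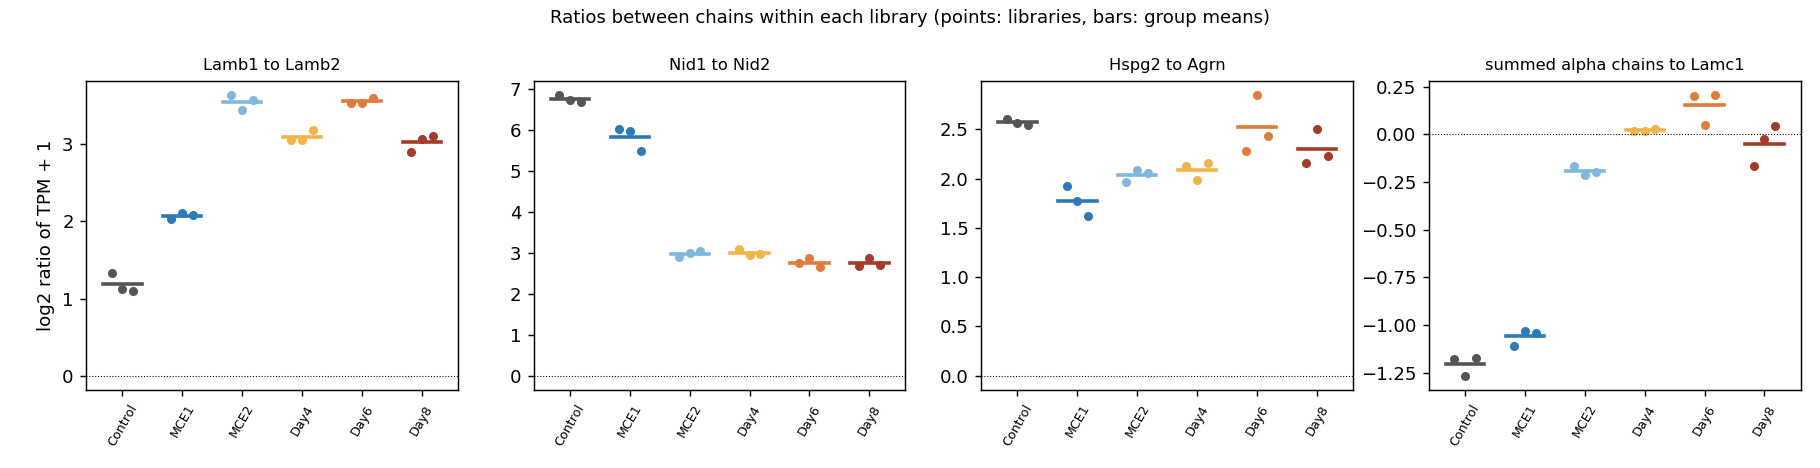
Log2 ratio in each library of Lamb1 to Lamb2, Nid1 to Nid2, Hspg2 to Agrn, and the summed alpha chains to Lamc1, with groups along the horizontal axis, 1 point per library and a bar at each group mean. Nid1 to Nid2 drops from 6.75 in Control to 2.97 at MCE2, and the ratio of alpha chains to Lamc1 goes from -1.21 in Control to near 0 from Day4.

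Perlecan RNA was lower than in Control from Day4 on. Hspg2, on chromosome 4 from 137024718 to 137126545, was at 144, 149 and 169 TPM in Control, 171, 149 and 130.3 at MCE1, 108, 118 and 114 at MCE2, 84.7, 83.3 and 97.2 at Day4, 80.9, 148 and 93.6 at Day6, and 112, 125 and 85.9 at Day8. The MCE1 libraries spread around the Control range, and MCE2, Day4 and Day8 lay below it, while replicate 2 of Day6 was within it. The change from Control was -0.80 ± 0.18 at Day4 (adjusted p = 0.000993), -0.56 at Day6 (0.0111) and -0.53 at Day8 (0.0156). Without Day6 replicate 1 the Day6 difference was -0.38 and was not called (0.0695). The Day8 difference was not called without Control replicate 3 (-0.46, adjusted p = 0.0592) or Day8 replicate 3 (-0.38, adjusted p = 0.0868). At MCE2 the change of -0.44 was called at an adjusted p of 0.0455, and it was not when any single Control or MCE2 library was left out (-0.37 to -0.48, adjusted p from 0.0574 to 0.139), without MCE1 replicate 2, Day4 replicate 1 or Day4 replicate 2 (0.0507 to 0.0546), or with median-ratio scaling (-0.24, adjusted p = 0.209).

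Agrin, best known for organising the neuromuscular synapse, is encoded by Agrn on chromosome 4 from 155539399 to 155571597. Its levels were 22.9, 24.4 and 28.1 TPM in Control, 44.1, 42.7 and 41.7 at MCE1, 26.9, 27.1 and 26.7 at MCE2, 18.6, 20.3 and 21.0 at Day4, 15.9, 19.6 and 16.5 at Day6, and 24.3, 21.1 and 17.5 at Day8. MCE1 stood above all other groups, and the others overlapped their neighbours in order. Agrn rose by 0.75 ± 0.11 at MCE1 (adjusted p = 2.31e-05) and fell by 0.65 from MCE1 to MCE2 (0.000140) and by 0.42 from MCE2 to Day4 (0.00438). Against Control it was lower at Day6 by a change of -0.51 ± 0.11 (0.000513).

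Smaller differences of Agrn depended on the scaling and on single libraries. The change of -0.32 at Day4 (adjusted p = 0.0168) was not called with median-ratio scaling (-0.18, adjusted p = 0.116), without Control replicate 3 (-0.24, adjusted p = 0.0887) or without Day4 replicate 1 (-0.27, adjusted p = 0.0655). At Day8 the change of -0.26 (0.0428, ranges overlapping) was not called in 11 of the 18 fits that left out 1 library (Control replicates 2 and 3, any MCE1 or MCE2 library, Day4 replicate 2, and Day8 replicates 2 and 3), the weakest being those without Control replicate 3 (-0.18, adjusted p = 0.189) and without Day8 replicate 3 (-0.14, adjusted p = 0.240). Nor was it called with median-ratio scaling (-0.13, adjusted p = 0.223), with quantile normalization (-0.12, adjusted p = 0.272) or in the fit over the 6 libraries alone (adjusted p = 0.137). At MCE2 the difference of 0.10 (0.443) was 0.29 and called with median-ratio scaling (0.0149). The log2 ratio of Hspg2 to Agrn was 2.57 ± 0.0292 in Control, 1.78 ± 0.152 at MCE1, 2.04 ± 0.0628 at MCE2, 2.09 ± 0.0919 at Day4 and 2.30 ± 0.183 at Day8 (exact permutation p = 0.1 in these 4 groups), and 2.52 ± 0.293 at Day6 (exact permutation p = 0.8).

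Between neighbouring stages, the late steps held fewer calls than the early ones, among the 10 genes as among all genes. From MCE1 to MCE2, 3 of the 10 genes rose (Nid2, Lama4, Lamb1) and 4 fell (Nid1, Lamb2, Agrn, Lama5), where 42.8% of all genes were called (17.7% higher and 25.2% lower). Going on to Day4, Lamb2 and Lamb1 rose and Lamc1, Lama4 and Agrn fell, where 51.6% were called (29.6% higher and 22.0% lower). Lama2 was higher as well, given as a description, since it passed the filter only through its Day4, Day6 and Day8 libraries. From Day4 to Day6, 3 rose (Lama4, Lamc1, Nid2) and 0 fell (25.7% of all genes called, 14.5% higher and 11.2% lower). Lamb2 was lower there by 0.27, which was called with median-ratio scaling but not in the main fit. From Day6 to Day8, 3 rose (Lama5, Lamb2, Lamc1) and 0 fell (21.7% called, 10.1% higher and 11.6% lower). At that last step the 6 libraries fitted alone gave adjusted p values of 0.128, 0.0607 and 0.0946 for these 3 genes, so that 0 were called by limma, with 3 at an unadjusted p under 0.05.

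Among the laminin chains outside the set, Lamb3, a beta chain best known from skin, stood out in the late groups. It was at 0.889 ± 0.0274 TPM in Control, 0.0437 ± 0.0756 at MCE1, 0.657 ± 0.0357 at MCE2, 2.16 ± 0.359 at Day4, 11.0 ± 0.347 at Day6 and 21.8 ± 0.931 at Day8. Its 9 libraries at 1 TPM or more were those of Day4, Day6 and Day8, through which alone it passed the filter, so its differences from Control, -0.86 at MCE1 and 3.59 ± 0.10 at Day8, are given as a description. Keratin 18 (Krt18) rose over the same groups, from 0 TPM in all Control libraries to 7.68 ± 0.776 TPM at Day8, with Krt5 under 1 TPM throughout. The other epithelial markers did not share 1 course. From Day4 to Day8 the mean of Krt14 went from 1.69 to 0.0849 TPM and that of Krt8 from 1.16 to 0.916 TPM. Means of Cdh1 and Epcam went from 1.01 and 0.566 TPM to 1.46 and 0.878 TPM. Lamc3 was listed at 0 in 15 libraries and was at most 0.108 TPM.

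Collagen IV, the other network of the basement membrane, was highest at MCE1. Of 8 basement membrane collagens 5 were tested, with 4 higher and 1 lower than Control at MCE1 (median 2.17) and 5 higher at Day8 (median 1.42), where 51.4% and 71.4% of all genes tested were called. Col4a1, which with Col4a2 forms the common collagen IV, went from 481.0 ± 24.0 TPM in Control to 2450 ± 167 at MCE1 and 1300 ± 180 at Day8. Its change was 2.35 ± 0.10 at MCE1 (adjusted p = 2.29e-11) and 1.42 ± 0.10 at Day8 (3.42e-09). Col4a2 followed, at 330.2 ± 13.0, 1636 ± 96.1 and 830.7 ± 105 TPM.

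Col4a5, a chain of a different collagen IV trimer, did the reverse at first. It was 50.9 ± 4.74 TPM in Control, 9.71 ± 0.342 at MCE1, 9.92 ± 1.25 at MCE2, 52.8 ± 7.71 at Day4 and 83.0 ± 8.03 at Day8. Its partner chains Col4a3, Col4a4 and Col4a6 were under 1 TPM in all libraries. Col15a1, a collagen that bears glycosaminoglycan chains, showed the largest rise of the list, from 3.36 ± 0.537 TPM in Control to 18.5 ± 1.04 at MCE1, 22.8 ± 1.90 at Day4 and 167.2 ± 19.7 at Day8 (5.27 ± 0.11, adjusted p = 4.66e-16, a 49.8-fold higher mean). The rise was not steady, since the mean of Col15a1 was 32.9 TPM at MCE2 and fell from there to Day4 (-0.51 by limma, adjusted p = 0.000736). Col18a1, a heparan sulfate collagen, was 41.4 ± 3.63 TPM in Control and 164.3 ± 12.6 TPM at Day8.

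Receptors for laminin and perlecan were called in both directions. Of 15 listed genes 12 were tested, with 2 higher and 5 lower than Control at MCE1 (median -0.22) and 7 higher and 5 lower at Day8 (median 0.61), where 51.4% and 71.4% of all genes tested were called. The 7 include Itga7, Itga1 and Bcam, which reached 1 TPM in no Control library and passed the filter through other groups. The Day8 count and median are therefore given as a description. Of the laminin-binding integrin alpha chains, Itga6 had the highest level in every group, and Itga3 and Itga7 exchanged places below it. Itga3 went from 16.9 ± 0.642 TPM in Control to 0.940 ± 0.193 TPM at Day8 (-3.21 ± 0.11, adjusted p = 1.82e-13). Itga7, known as the laminin receptor of muscle, went from 0.484 ± 0.181 TPM in Control through 3.00 ± 0.707 at MCE2 and 9.78 ± 0.714 at Day4 to 37.5 ± 9.77 at Day8. Its 12 libraries at 1 TPM or more were those of MCE2, Day4, Day6 and Day8, through which alone it passed the filter. Its difference from Control at Day8, 4.67 ± 0.21, is therefore given as a description. Desmin rose over Day4, Day6 and Day8, as Itga7 and Lama2 did, but at MCE2 it was 2.79 TPM against 3.10 TPM in Control.

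Itga6 fell from 67.4 ± 3.02 TPM in Control to 26.6 ± 4.70 at MCE1 (-1.32 ± 0.19, adjusted p = 2.39e-05), and its level was 153.8 ± 15.2 TPM at Day8. Dag1, which encodes dystroglycan, the non-integrin laminin receptor, was 34.3 ± 3.80 TPM in Control and 95.0 ± 16.0 TPM at Day8 (1.44 ± 0.19, adjusted p = 4.39e-06). Itgb1, named after its values were seen because it is the shared partner of these alpha chains, was 506.9 ± 16.1 TPM in Control, 222.1 ± 14.2 at MCE2 and 270.8 ± 16.6 at Day8 (-0.90 ± 0.06, adjusted p = 8.45e-10). The syndecans, membrane proteoglycans that bind laminin, split at MCE1, where Sdc4 rose from 129.2 to 345.9 TPM and Sdc3 fell from 110.3 to 25.0 TPM.

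**Figure D4:**
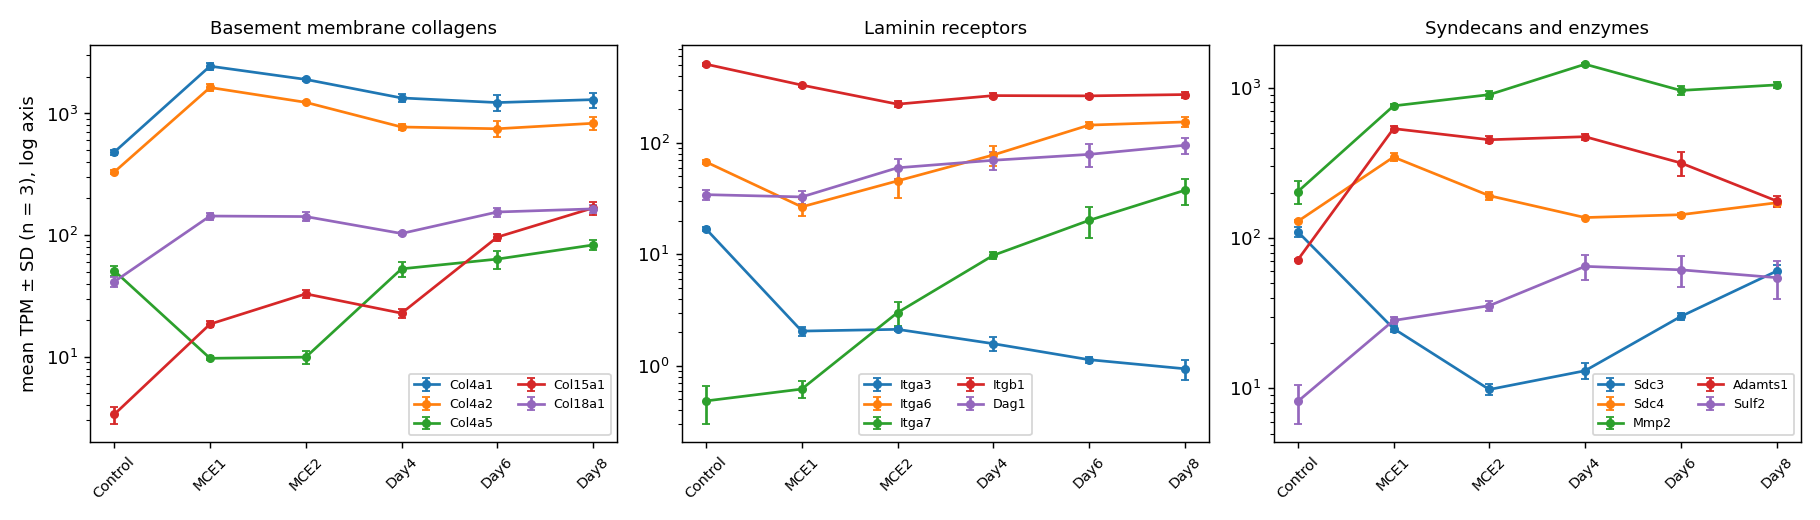
Mean TPM ± SD (n = 3) by group, on a log axis, of basement membrane collagens (Col4a1, Col4a2, Col4a5, Col15a1, Col18a1), of laminin receptors (Itga3, Itga6, Itga7, Itgb1, Dag1), and of syndecans and modifying enzymes (Sdc3, Sdc4, Mmp2, Adamts1, Sulf2). Col4a5 dips at MCE1 and MCE2 while Col4a1 and Col4a2 peak, and Itga3 and Itga7 cross.

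The genes most like each member over the 18 libraries were sought by Pearson's r of log2(TPM + 1) among 9001 genes, as a description only, since the points share their groups. Nid2 was most like Lrig1 (0.995), Lipe, which encodes hormone-sensitive lipase (0.994), and Foxo1 (0.992). Lamb1 was closest to Aifm2 (0.990) and to the fatty acid oxidation genes Cpt2 and Acsl1 (both 0.989). For Lama4 the closest were Chp1 (0.985), Sema3g (0.970) and Disp2 (0.966), and for Lama2 they were Cpq (0.984), Etfa (0.981) and Aldh1l1 (0.979). Nid1 was closest to Map3k3 (0.981), Agrn to Twsg1 (0.965) and Lamc1 to Tmem50b (0.926). Within the set the highest r was 0.97, between Lamb1 and Nid2, and Lama4 with Lamc1 gave 0.66.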

How the data were processed

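Per the submitters' processing notes, reads were handled with FastQC, cutadapt, HISAT2 and StringTie on the mm9 build, with versions and annotation not given in the sources used here. Each library has a deposited table of TPM for the same 25209 genes, and its values add up to between 869497 and 880273. From these TPM values, 12 genes at another locus in Control replicate 1 were left out (0 of the members). Libraries of 1 group correlated at r from 0.990 to 0.996. Groups were taken from the sample titles. The 12695 genes that reached 1 TPM in 3 or more libraries were fitted as log2(TPM + 1) with limma 3.58.1 (trend and robust, 1 mean per group over 18 libraries, 12 residual degrees of freedom) in R 4.3.3, which was tested on simulated data, with 9 comparisons and an F test. Shares and ratios were tested with exact 2-sided permutation tests. Alternatives were a pseudocount of 0.1, no filter, a filter of 5 TPM, 2 scalings, the replicate block, 6-library fits and leaving out each library. All 10 members were named. For each gene list, up to 4 called genes with the largest change could be named, and for each member the 3 most similar genes. The members and lists were chosen with earlier results of these data known. Other tools were matplotlib 3.10.9, numpy 2.4.6, pandas 2.3.3 and Python 3.11.15.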

Additional observations from a re-analysis of the deposited data

How the results depend on the processing

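Across 9 comparisons, the 90 changes of the 10 genes were recomputed under 7 other settings and 18 fits that left out 1 library. Of 2232 values, 2157 kept their direction and their side of the threshold, 42 lost a call, 33 gained one and 0 called values changed sign. The changes fell on 21 of the 90. From Day4 to Day6, the 3 genes called became 5 with median-ratio scaling, and 2 to 5 with 1 library left out, 5 being reached without Day8 replicate 3. From Day6 to Day8, the 3 became 0 in the fit over the 6 libraries alone, which called 1072 genes in place of 2761, and 3 to 5 with 1 library left out, 5 being reached without Day6 replicate 2 or Day8 replicate 3. With a pseudocount of 0.1 the shift in the log2 ratio of Nid1 to Nid2 was -4.00 at MCE2, -3.97 at Day4, -4.22 at Day6 and -4.23 at Day8, against -3.77, -3.75, -3.99 and -4.00; the larger size follows from the low Nid2 level in Control.

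Same-numbered libraries did not deviate together: over 27 pairs r was -0.074 to 0.093, and 6 correlated best with their own number. With the replicate block, 8 of the 10 genes were called at Day8 in place of 9, Agrn being lost (-0.26, adjusted p = 0.0563), and no other call of the 10 genes changed. With depth unknown, counting error has no value of its own here and is part of the spread among libraries. Lama2 and Lama5, at most 2.38 and 2.46 TPM in any library, did not pass the filter of 5 TPM, which left 8 genes.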

Other observations

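In the comparisons of MCE1 and Day8 with Control, 51.4% and 71.4% of all genes tested were called, and the counts below stand beside those shares. Sulf2, which removes sulfate groups from heparan sulfate outside the cell, was 8.19 ± 2.36 TPM in Control, 28.3 ± 1.45 at MCE1, 64.9 ± 11.9 at Day4 and 54.6 ± 15.4 at Day8 (2.59 ± 0.22 against Control by limma, adjusted p = 2.67e-08), while Sulf1 and the heparanase gene Hpse were under 1 TPM in all libraries. Of 16 genes of heparan sulfate synthesis 13 were tested, with 3 higher and 4 lower at MCE1 and 4 higher and 6 lower at Day8, shares near those of all genes. Extl3, which starts the chain, went from 26.3 to 55.3 TPM at Day8, and Glce, the epimerase, from 27.9 to 14.5 TPM. The summed level of the 16 genes lay between 517 and 627 TPM in all groups.

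Among 14 proteases 10 were tested, with 2 higher and 4 lower than Control at MCE1 and 5 higher and 5 lower at Day8. Adamts1 rose from 71.6 TPM in Control to 535 TPM at MCE1 (2.89 ± 0.09 by limma, adjusted p = 6.4e-13) and was 176.7 TPM at Day8. Mmp2, which cuts collagen IV, went from 203.6 TPM in Control to 757.8 at MCE1 and 1045 at Day8. Tll1 was 6.22 TPM in Control and listed at 0 in Day8. Of 18 other basement membrane proteins 12 were tested, with 6 higher and 5 lower at Day8, among them Smoc1 (0.475 to 11.9 TPM), Vwa1 (0.943 to 6.65 TPM), Tinagl1 (188.4 to 38.2 TPM) and Fbln2 (1126 to 431.1 TPM). The 6 include Smoc1, Vwa1 and Hmcn1, which reached 1 TPM in no Control library and passed the filter through other groups. This count is therefore given as a description.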
